A study of Mus musculus with 6 samples.

Results

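The mitochondrial solute carriers of the Slc25 family were examined in left ventricles of mice after aortic banding (AB), a pressure overload of the heart. Every protein-coding gene whose name is Slc25a followed by a number was taken, together with Ucp1, Ucp2 and Ucp3, and the ADP/ATP carriers Slc25a4 and Slc25a5 and the carnitine carrier Slc25a20 were left out. This gave 47 of the 54532 genes in the count table. The comparison was between 3 hearts that overexpress HINT2, a nucleotide hydrolase of mitochondria, and 3 control hearts, and it asked which carrier transcripts differed when HINT2 was raised under pressure overload. The HINT2 hearts (TG, labelled HINT2CTG-Myh6Cre) came from mice with a HINT2 transgene, whose species the paper does not state. It was switched on by a Myh6-driven Cre, which acts in cardiomyocytes, after tamoxifen. The control hearts (NTG) were labelled C57BL/6J, and the sources used here do not say whether NTG mice carried the Cre or received tamoxifen. All 6 mice were banded at 8 to 10 weeks of age and sampled 4 weeks later, so no unbanded heart enters the comparison. Each library is 1 labelled sample of whole left ventricle, and the p-values cover the spread between these samples only.

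Carriers of this family sit in the inner mitochondrial membrane, with few exceptions, and move metabolites between the cytosol and the matrix that the membrane would otherwise hold back. They bring in phosphate for ATP synthesis, exchange dicarboxylates and amino acids in the malate-aspartate shuttle, and supply the matrix with iron, glutathione, coenzyme A, NAD and other cofactors. The uncoupling proteins belong to the same family, and UCP1 lets protons leak back into the matrix in brown fat. The heart, which makes nearly all of its ATP in mitochondria, depends on these exchanges.

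Libraries held 14863568 to 17581220 counts in NTG and 14944465 to 17235802 in TG. The mouse Hint2 gene had 12, 545 and 559 counts in NTG 1, 2 and 3 and 793, 828 and 859 in TG. Whether reads of the transgene are among these counts was not tested. The count of 12 stands far below the other controls and goes against a plain control label, so this sample is called the library labelled NTG 1 and results are given with and without it. Hint2 differed by a log2 fold change of 1.33 ± 0.86 (SE, edgeR, adjusted p = 0.433), and by 0.77 ± 0.12 without that library (adjusted p = 0.0212). Cell type markers also differed between the groups, and their counts below, at an unadjusted p under 0.05, stand against 8.83% of all genes higher and 9.76% lower. The summed level of 5 fibroblast markers, in CPM (counts scaled to a common library size), was 3564 to 7973 in NTG and 1743 to 3028 in TG, with 5 of 5 lower at an unadjusted p under 0.05, and that of 6 erythroid genes was 1310 to 2246 in NTG and 762 to 908 in TG, with 5 of the 5 tested lower. Macrophage markers summed to 298 to 583 CPM in NTG and 233 to 338 in TG (2 of 5 lower), and cardiomyocyte markers to 17928 to 30298 CPM in NTG and 29081 to 36105 in TG (2 of 6 higher). Smooth muscle markers summed to 124 to 151 CPM in NTG and 194 to 214 in TG (2 of 3 higher). Endothelial markers summed to 1309 to 1524 CPM in NTG and 1404 to 1549 in TG (1 of 4 higher). Atrial markers summed to 67.4, 2.18 and 2.20 CPM in NTG and 4.54, 29.2 and 167 in TG (0 of 3 in either direction). In whole ventricle, fewer cells of a type and less RNA per cell cannot be told apart, and the part of these markers in the carrier results was not tested.

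Of the 47 carriers, 38 had enough counts to be tested and 9 did not. A pair of transporters dominated the set. Per kilobase of gene length, the phosphate carrier Slc25a3 averaged 208 CPM over the 6 hearts and the 2-oxoglutarate/malate carrier Slc25a11 averaged 186 CPM, and together they made up 55.6% of the summed carrier level per kilobase. The 8 carriers ranked next together made up 27.9%. These were the glutathione carrier Slc25a39 (37.8 CPM per kilobase), Slc25a34 (37.8), which has no substrate assigned here, the aspartate/glutamate carrier Slc25a13 (29.6), Ucp2 (24.1), the aspartate/glutamate carrier Slc25a12 (22.2), the NAD carrier Slc25a51 (16.2), the iron carrier Slc25a28 (15) and Slc25a46 (14.9), an outer membrane member of the family. Slc25a39 and Slc25a34 had the same mean level to 3 digits, and the values of neighbours further down the order overlapped between hearts. The order also turned between the groups. Slc25a39 was above Slc25a34 in NTG (34.6 against 29.9) and below it in TG (40.9 against 45.7). Ucp2 was above Slc25a12 in NTG (26.7 against 18.9) and below it in TG (21.5 against 25.6). For 44 of the 47 carriers the gene length equals all annotated exons together, so the order per kilobase depends on the annotation. In all, 35 of the 47 carriers exceeded 1 CPM per kilobase.

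**Figure D1:**
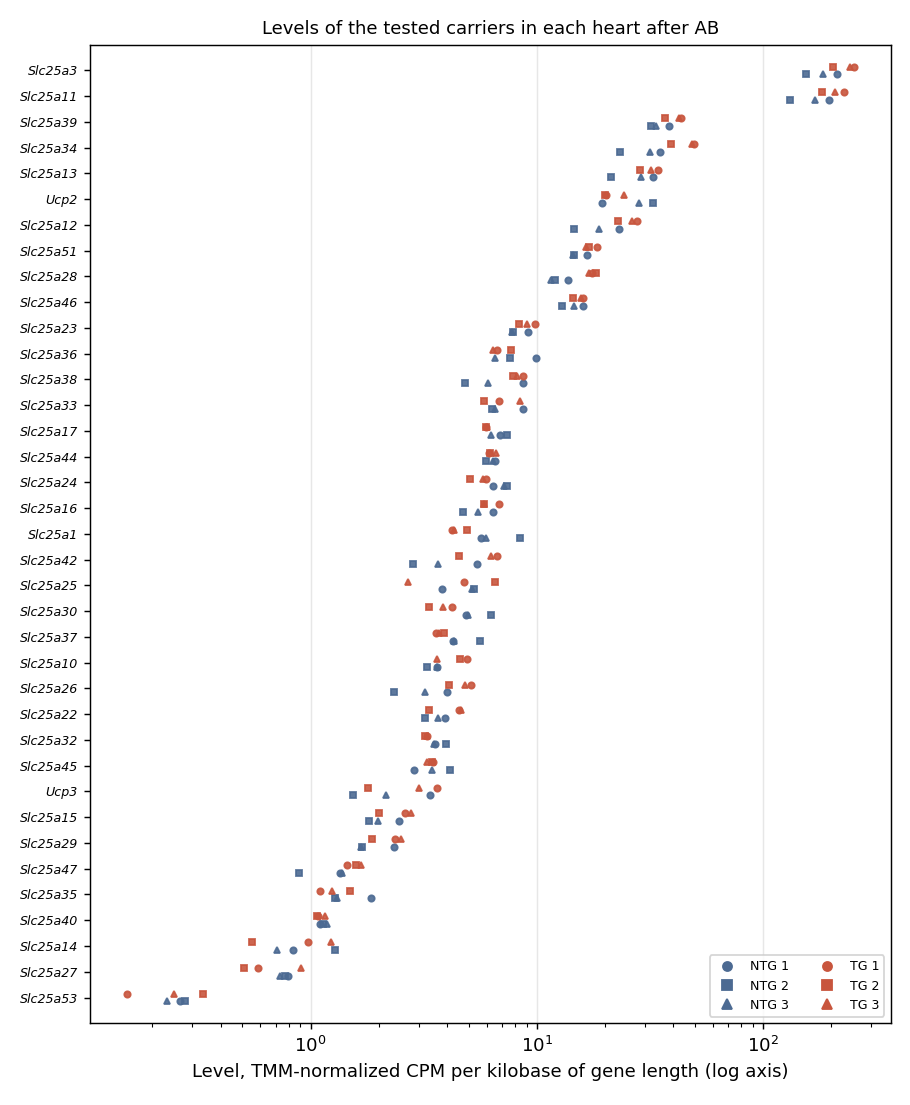
Level of each of 37 tested carriers in each heart, in normalized CPM per kilobase of gene length on a log axis, for 3 NTG hearts (blue) and 3 TG hearts (red). Slc25a3 (mean 208) and Slc25a11 (mean 186) stand apart from the other carriers, of which 8 more exceed 10 CPM per kilobase.

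The untested carriers were near or at 0 in all hearts. Slc25a43, with no substrate assigned here, had 1 to 14 counts per library, the glutamate carrier Slc25a18 had 0 to 11, the testis ADP/ATP carrier Slc25a31 had 1 to 8, the ornithine carrier Slc25a2 had 0 to 3 and Ucp1 had 0 to 2. Slc25a21, Slc25a41, Slc25a48 and Slc25a54 had 0 counts in all 6 libraries, which allows up to 0.159 to 0.216 CPM, counting error only. Undetected and detected genes lay side by side on the genome. Slc25a41 starts 2056 bases from Slc25a23, and Slc25a54 lies 6461 bases from Slc25a24, while both of the neighbours, carriers of ATP-Mg and phosphate, were measured at 41.1 to 52.0 CPM and 17.3 to 25.2 CPM. Ucp2 and Ucp3, the paired uncoupling protein genes on chromosome 7, are 6904 bases apart, and Ucp2 was several times the level of Ucp3 per kilobase (24.1 against 2.58 CPM).

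No carrier passed the threshold used by the study, an adjusted p under 0.05 with a log2 fold change over 0.5 in size, in edgeR's quasi-likelihood test of TG against NTG. The same test called 0% of the 14774 genes tested in each direction. At an unadjusted p under 0.05, 5 carriers were higher in TG (among them Slc25a34, Slc25a26, Slc25a28 and Slc25a12) and 4 were lower (Slc25a1, Slc25a30, Slc25a37 and Slc25a24). The 5 are 13.2% of the carriers tested, against 8.83% of all genes, and the 4 are 10.5%, against 9.76% of all genes. The 2 groups of hearts did not overlap for 4 carriers that were higher in TG (10.5%, against 11.2% of all genes) and 6 that were lower (15.8%, against 12.3%). Counts this close to the background are not a result about the carriers as a set. With DESeq2, the study's tool, 2 carriers were called higher, Slc25a34 and Slc25a28 (against 1.54% of all genes), and 0 lower (against 2.40%).

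Fold changes ran both ways, and gene positions below are on GRCm38. The 38 log2 fold changes of TG over NTG lay between -0.58 for Slc25a1 and 0.61 for Slc25a34, that is between 0.671-fold and 1.53-fold. They were above 0 for 22 carriers (57.9%, against 48.7% of all genes), with a median of 0.14, against -0.0081 over all genes. Without the library labelled NTG 1 the median was 0.23, and it stayed between 0.074 and 0.23 whichever single library was removed. In all 6 of those fits the sign of the fold change was the same for 32 of the 38 carriers, 21 higher and 11 lower in TG. Between hearts of a group, the coefficient of variation had a median over the carriers of 16.9% in NTG and 9.78% in TG.

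**Figure D2:**
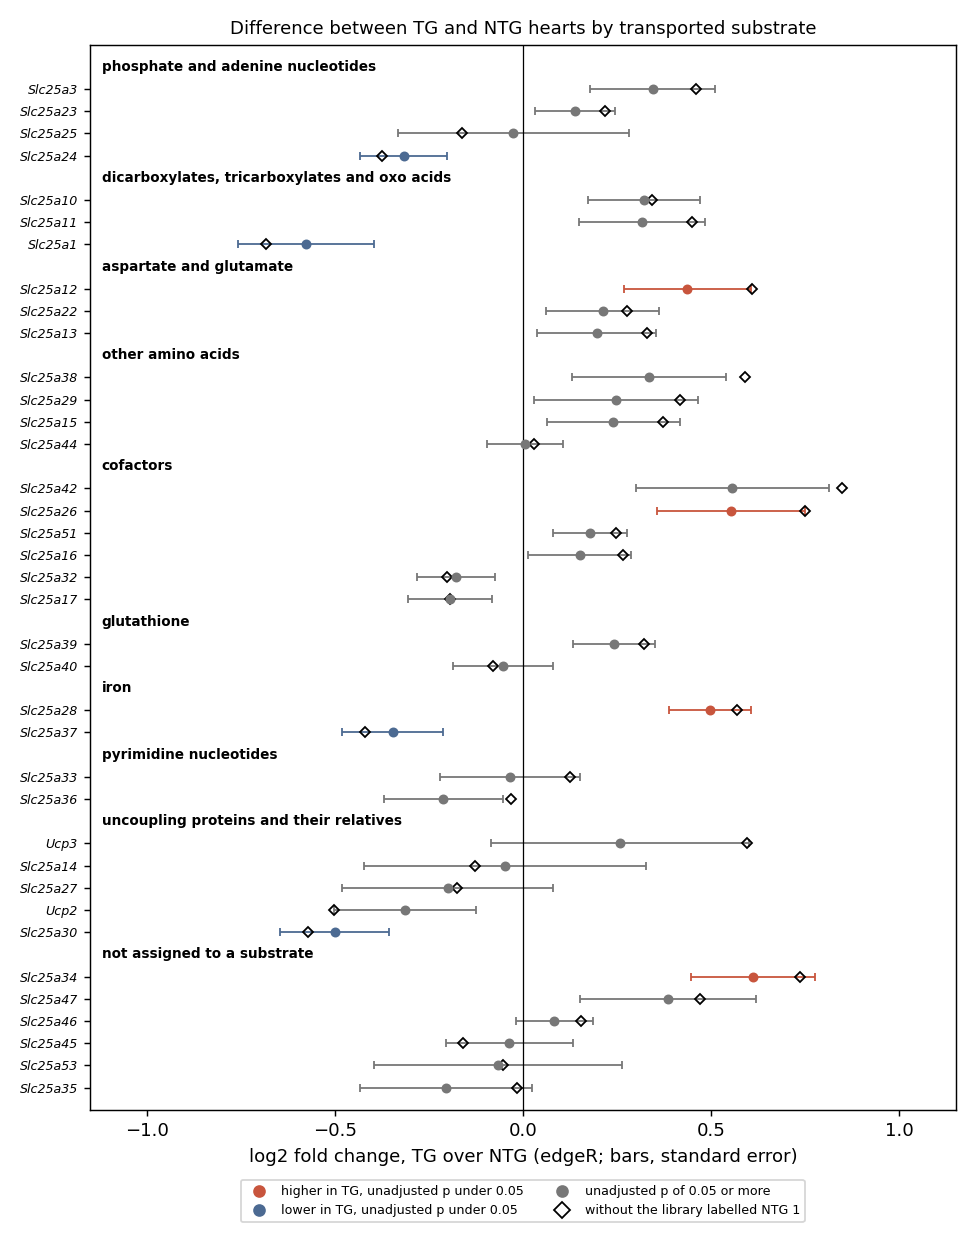
log2 fold change of TG over NTG for 37 tested carriers, grouped by transported substrate (points, edgeR estimate from 3 hearts a group, bars, SE), with open diamonds for the estimate without the library labelled NTG 1. Coloured points mark 4 carriers that were higher and 4 that were lower at an unadjusted p under 0.05, and no carrier passed the adjusted threshold in the edgeR fit to all 6 libraries that the points show.

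Among the phosphate and adenine nucleotide carriers, Slc25a3, which brings in the phosphate that ATP synthase uses, had 1176, 856 and 1022 CPM in NTG and 1399, 1133 and 1347 CPM in TG. NTG 2 was the lowest heart, and the library labelled NTG 1 lay above TG 2. Its log2 fold change was 0.34 ± 0.17 (SE, edgeR, adjusted p = 0.301), and 0.46 ± 0.17 without the library labelled NTG 1 (adjusted p = 0.131). The calcium-sensitive ATP-Mg/phosphate carriers differed among themselves. Slc25a24 (ENSMUSG00000040322, chromosome 3, 109123149 to 109168457) had 22.0, 25.2 and 24.5 CPM in NTG and 20.5, 17.3 and 19.8 CPM in TG, so that the lowest control was above the highest TG heart. Its log2 fold change was -0.32 ± 0.12 (SE, edgeR, adjusted p = 0.221), and its unadjusted p was under 0.05 in 3 of the 6 fits that left out 1 library. Slc25a23 had 48.4, 41.4 and 41.1 CPM in NTG and 52.0, 44.0 and 48.1 CPM in TG, overlapping, and a log2 fold change of 0.14 ± 0.11. Slc25a25 spread from 21.2 to 51.5 CPM within the TG group alone and had a log2 fold change of -0.03 ± 0.31, which ran from -0.35 without TG 2 to 0.25 without TG 3.

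Among the carriers of dicarboxylates, tricarboxylates and oxo acids, Slc25a11 exchanges 2-oxoglutarate for malate in the malate-aspartate shuttle. Rnf167, on the opposite strand, shares 8.92% of its exonic length, and whether counting used the strand is not known here. Slc25a11 had 413, 279 and 360 CPM in NTG and 483, 387 and 441 CPM in TG. The groups overlapped through the library labelled NTG 1. In the fit, TG differed from NTG by a log2 fold change of 0.32 ± 0.17 (SE, edgeR, adjusted p = 0.338), by 0.45 without that library and by 0.18 without NTG 2. The dicarboxylate carrier Slc25a10 had nearly the same value, 0.32 ± 0.15. The citrate carrier went the other way. Slc25a1 (ENSMUSG00000003528, chromosome 16, 17925223 to 17928219), which exports citrate from which the cytosol makes acetyl-CoA, had 12.2, 18.2 and 12.8 CPM in NTG and 9.16, 10.6 and 9.32 CPM in TG. All 3 controls were above all 3 TG hearts, with NTG 2 the highest by a wide step. Its log2 fold change of -0.58 ± 0.18 was the lowest of the tested carriers (SE, edgeR, adjusted p = 0.204) and lay between -0.68 and -0.37 when each library was left out. Its unadjusted p stayed under 0.05 in all 6 of these fits.

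The aspartate and glutamate carriers Slc25a12 and Slc25a13 take part in the same shuttle. Slc25a12 (ENSMUSG00000027010, chromosome 2, 71271063 to 71367749), the form known to prevail in heart and brain, had 170, 107 and 139 CPM in NTG and 203, 168 and 193 CPM in TG. The library labelled NTG 1 reached into the TG range. This gave a log2 fold change of 0.44 ± 0.17 (SE, edgeR, adjusted p = 0.231), 0.61 ± 0.15 without that library (adjusted p = 0.0501) and 0.28 ± 0.13 without NTG 2 (adjusted p = 0.494). Its unadjusted p was under 0.05 in 2 of the 6 fits that left out 1 library. Slc25a13, known as the liver form, was measured at 123, 81.0 and 110 CPM in NTG and 131, 108 and 121 CPM in TG, with a log2 fold change of 0.20 ± 0.16, 0.33 without the library labelled NTG 1 and 0.039 without NTG 2. Per kilobase it was above Slc25a12 in all 6 hearts, and in CPM it was below Slc25a12 in all 6. The order per kilobase thus rests on the gene lengths, 3798 bases for Slc25a13 and 7342 for Slc25a12. The glutamate carrier Slc25a22 had 23.5, 19.3 and 21.9 CPM in NTG and 27.2, 20.1 and 27.6 CPM in TG, overlapping through TG 2, and a log2 fold change of 0.21 ± 0.15 that was 0.35 without TG 2, 0.13 without TG 3 and 0.14 without NTG 2. Thus 3 of the 3 tested members of this class had values above 0, against 48.7% of all genes, and 1 of them was higher at an unadjusted p under 0.05, against 8.83%, counts too small to set this class apart from the background.

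Among the carriers of other amino acids, Slc25a38, which brings in glycine for haem synthesis, was the highest per kilobase. It had 23.9, 13.2 and 16.8 CPM in NTG and 23.7, 21.5 and 22.5 CPM in TG, and the library labelled NTG 1 was the highest of all 6. The fitted difference on the log2 scale was 0.33 ± 0.20 (SE, edgeR, adjusted p = 0.396), 0.59 ± 0.14 without that library (adjusted p = 0.0526) and 0.15 ± 0.16 without NTG 2 (adjusted p = 0.759). The ornithine carrier Slc25a15 and the basic amino acid carrier Slc25a29 had log2 fold changes of 0.24 ± 0.18 and 0.25 ± 0.22, and of 0.14 to 0.37 and 0.16 to 0.42 when each library was left out. The branched-chain amino acid carrier Slc25a44 had the value nearest to 0 of this class, 0.00 ± 0.10, with 21.3 to 23.4 CPM in NTG and 22.0 to 23.7 CPM in TG.

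All 7 cofactor carriers were tested, 5 with values above 0 (71.4%, against 48.7% of all genes) and 2 below, with a median log2 fold change of 0.18. Slc25a26 (ENSMUSG00000045100, chromosome 6, 94500331 to 94604672) imports S-adenosylmethionine, the methyl donor of the matrix. It had 19.3, 11.3 and 15.3 CPM in NTG and 24.5, 19.6 and 23.0 CPM in TG, and the groups did not overlap, although the highest control lay just under the lowest TG heart. TG differed from NTG by a log2 fold change of 0.55 ± 0.20 (SE, edgeR, adjusted p = 0.217), with 0.37 to 0.75 when each library was left out and an unadjusted p under 0.05 in 3 of these 6 fits.

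The coenzyme A carriers Slc25a42 and Slc25a16 had log2 fold changes of 0.56 ± 0.26 and 0.15 ± 0.14. Slc25a42 varied most among the cofactor carriers, with 32.6, 16.9 and 21.8 CPM in NTG and 40.0, 27.1 and 37.7 CPM in TG, and its edgeR adjusted p was 0.294. Its log2 fold change was 0.85 without the library labelled NTG 1 (edgeR, adjusted p = 0.0517) and 0.36 without NTG 2 (adjusted p = 0.598). Slc25a16 had 30.8, 22.5 and 26.4 CPM in NTG and 32.6, 28.0 and 27.9 CPM in TG, overlapping, and its log2 fold change was 0.27 and 0.042 without the same libraries. The NAD carrier Slc25a51, the highest of the class per kilobase, had 92, 80.4 and 79.3 CPM in NTG and 101, 93.2 and 90.4 CPM in TG, with a log2 fold change of 0.18 ± 0.10 (SE, edgeR, adjusted p = 0.352). The groups overlapped through the library labelled NTG 1. The folate and FAD carrier Slc25a32 and the peroxisomal carrier Slc25a17 were the members below 0, at -0.18 ± 0.10 and -0.19 ± 0.11, and in both the TG hearts lay close together (19.4 to 19.9 CPM and 16.9 to 17.2 CPM) under all 3 controls (21.3 to 24.0 CPM and 17.8 to 21.1 CPM). Neither had an unadjusted p under 0.05.

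Of the glutathione carriers, Slc25a39, which imports glutathione, had 106, 88.0 and 92.4 CPM in NTG and 120, 101 and 117 CPM in TG. TG 2 lay between the controls, and the log2 fold change was 0.24 ± 0.11 (SE, edgeR, adjusted p = 0.284). Its relative Slc25a40 was measured at 8.93 to 9.95 CPM in all 6 hearts, with a log2 fold change of -0.05 ± 0.13. The mitoferrins, which import iron for haem and iron-sulfur clusters, stood on opposite sides. Slc25a28 (mitoferrin 2, ENSMUSG00000040414, chromosome 19, 43663822 to 43674881), the widely expressed form, had 20.7, 18.3 and 17.4 CPM in NTG and 26.4, 27.5 and 25.6 CPM in TG. The hearts of each group lay close together and the groups were well apart. Its log2 fold change was 0.50 ± 0.11 (SE, edgeR, adjusted p = 0.196), the smallest unadjusted p among the carriers, and 0.44 to 0.57 when each library was left out, with an unadjusted p under 0.05 in all 6 fits.

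Slc25a37 (mitoferrin 1, ENSMUSG00000034248, chromosome 14, 69241848 to 69285112), the form known for erythroid cells, had 25.5, 33.9 and 25.9 CPM in NTG and 21.6, 23.4 and 22.2 CPM in TG. All controls were above all TG hearts, and NTG 2 was the highest. This gave a log2 fold change of -0.35 ± 0.13 (SE, edgeR, adjusted p = 0.230), and -0.20 when the most distant control, NTG 2, was left out, and its unadjusted p was under 0.05 in 3 of the 6 fits that left out 1 library. The erythroid marker genes had their highest sum, 2246 CPM, in that same NTG 2 heart and lay at 762 to 908 CPM in TG, and their part in the Slc25a37 value was not tested. Opposite-strand exons of the gene model Gm31748 cover 6.33% of the exonic length of Slc25a37, and whether counting used the strand is not given in the sources used here.

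Of the pyrimidine nucleotide carriers, Slc25a36, the higher per kilobase, had 95.5, 73.1 and 62.8 CPM in NTG and 64.0, 74.0 and 61.6 CPM in TG. Only the library labelled NTG 1 stood clear of the TG range, and the log2 fold change of -0.21 ± 0.16 became -0.03 without it. Slc25a33 had 16.5, 11.9 and 12.3 CPM in NTG and 12.8, 11 and 15.9 CPM in TG, fully mixed, with a log2 fold change of -0.03 ± 0.19, and 0.12 without the same library. An antisense gene, Gm13068, shares 14.9% of the exonic length of Slc25a33.

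Among the uncoupling proteins and their relatives, Slc25a30 (ENSMUSG00000022003, chromosome 14, 75760117 to 75787037), also called kidney mitochondrial carrier protein 1, had 22.1, 28.7 and 22.6 CPM in NTG and 19.2, 15.3 and 17.5 CPM in TG. The groups did not overlap, and NTG 2 was again the most distant control. The fitted difference on the log2 scale was -0.50 ± 0.15 (SE, edgeR, adjusted p = 0.196), and -0.58 to -0.37 when each library was left out, with an unadjusted p under 0.05 in all 6 fits. Ucp2, which is also abundant in immune cells, had 135, 227 and 198 CPM in NTG and 142, 139 and 170 CPM in TG. The library labelled NTG 1 was the lowest of all 6, while the other controls were above every TG heart. Its log2 fold change was -0.31 ± 0.19 (SE, edgeR, adjusted p = 0.393), -0.50 without that library (adjusted p = 0.0592) and -0.15 without NTG 2. Macrophage markers had the same order among the controls, at 298, 583 and 347 summed CPM, and their part was not tested.

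Ucp3, the form of skeletal muscle and heart, had 10.5, 4.83 and 6.77 CPM in NTG and 11.3, 5.63 and 9.44 CPM in TG. Its spread within each group was wider than the difference between them, and the log2 fold change was 0.26 ± 0.34 (SE, edgeR, adjusted p = 0.708), 0.60 without the library labelled NTG 1 and 0.023 without NTG 2. Ucp1 was not detectable as different at 0 to 2 counts per library. The relatives Slc25a27 and Slc25a14, known from brain, were at 1.31 to 3.58 CPM, with log2 fold changes of -0.20 ± 0.28 and -0.05 ± 0.38. When each library was left out, Slc25a27 ran from -0.49 to -0.031 and Slc25a14 from -0.32 to 0.24. Over the 5 tested members of the class, 4 had values below 0, and 1 of these was lower at an unadjusted p under 0.05, against 9.76% of all genes. The median of the class was -0.20, and -0.41 to -0.031 when each library was left out.

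Of the carriers with no substrate assigned here, Slc25a34 (ENSMUSG00000040740, chromosome 4, 141618824 to 141623821) is known from muscle and heart. It had 93.1, 62.2 and 84.1 CPM in NTG and 132, 104 and 130 CPM in TG. All TG hearts were above all controls, and the lowest heart of each group was number 2. The mean was 79.8 ± 15.9 CPM in NTG and 122 ± 15.3 CPM in TG (SD, n = 3 each). The log2 fold change of 0.61 ± 0.16 was the highest of the tested carriers (SE, edgeR, adjusted p = 0.196), with 0.46 to 0.74 when each library was left out and an unadjusted p under 0.05 in all 6 fits. Slc25a47, known from liver, had 2.66 to 4.11 CPM in NTG and 4.33 to 5.00 CPM in TG without overlap, and a log2 fold change of 0.38 ± 0.23 at this low level, 0.20 without NTG 2. The others, Slc25a35, Slc25a45, Slc25a46 and Slc25a53, had log2 fold changes from -0.20 to 0.08, none with an unadjusted p under 0.05. Rangrf, on the opposite strand, shares 31.3% of the exonic length of Slc25a35, so the count of Slc25a35 is uncertain.

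**Figure D3:**
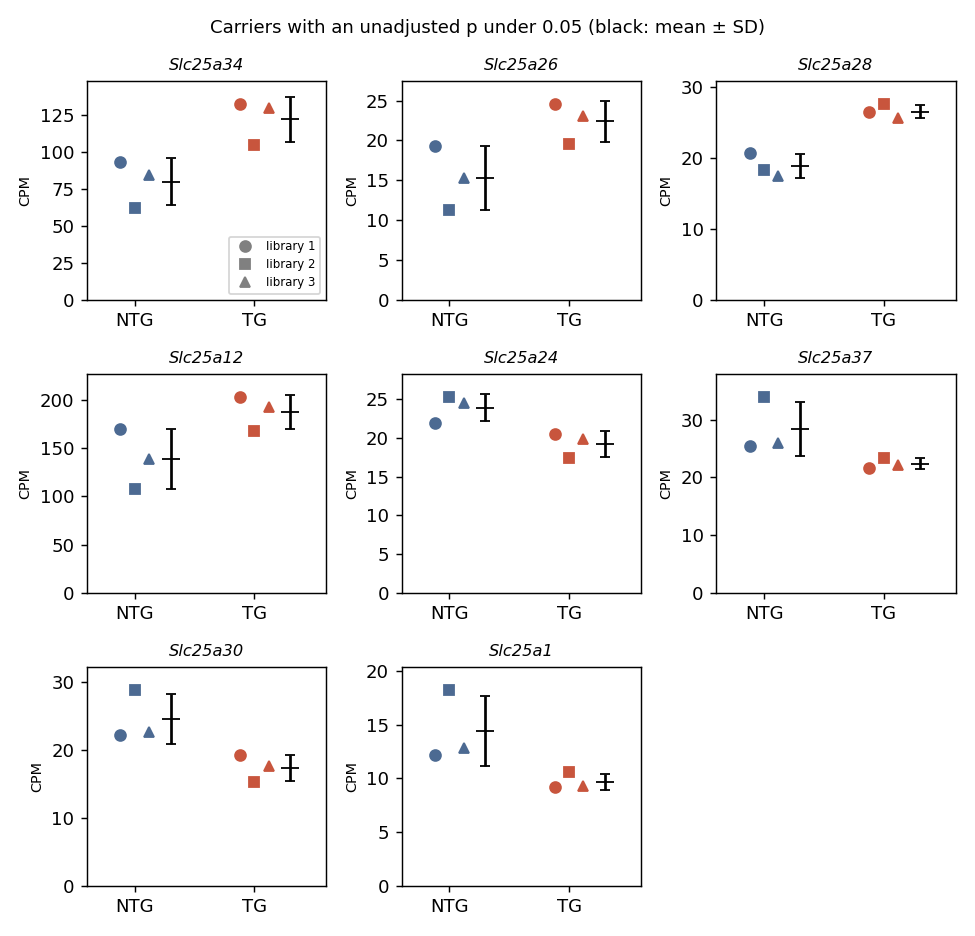
Normalized CPM in each heart for 8 carriers with an unadjusted p under 0.05, with 1 point per library (shape, library number) and the mean ± SD of 3 hearts in black, on axes that start at 0. The groups do not overlap in 7 of the 8, and in Slc25a12 the library labelled NTG 1 lies inside the TG range. The 8 were picked by p from these same hearts, which favours a lack of overlap. Of all genes tested, 11.2% were higher and 12.3% lower without overlap.

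The library labelled NTG 1 was the control nearest to the TG hearts for all 9 carriers with an unadjusted p under 0.05. It lay inside the TG range for 2 of the 5 that were higher and for 0 of the 4 that were lower. The same position was seen over all genes tested. On their first principal component, the axis of largest variation (52.3%), NTG 1, 2 and 3 were at -5.08, 55.7 and 29.3. TG 1, 2 and 3 were at -32.7, -10.7 and -36.5. NTG 2 was the control farthest from TG for 4 of the 5 and 4 of the 4, and it was the lowest of the 6 hearts for 18 of the 38 tested carriers and the highest for 9. Without the library labelled NTG 1, edgeR called 4 carriers higher in TG, against 2.67% of all genes in that direction, and 0 lower, against 2.85%. Among these were Slc25a34 at a log2 fold change of 0.74 ± 0.16 (adjusted p = 0.0446), Slc25a28 at 0.57 ± 0.11 (adjusted p = 0.0340) and Slc25a26 at 0.75 ± 0.17 (adjusted p = 0.0471). Leaving out any other library left 0 carriers called. At an unadjusted p under 0.05 without the library labelled NTG 1, 11 carriers were higher, against 13.7% of all genes, and 5 were lower, against 13.3%. DESeq2 without that library called 7 carriers higher, against 5.92% of all genes, and 2 lower, against 5.79%. Beside those 4, the 7 held Slc25a12, Slc25a42 and Slc25a38, and the 2 were Slc25a30 and Slc25a1.

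Related carriers were also compared within each heart, as the log2 ratio of their levels per kilobase, which does not depend on library scaling. An exact two-sided permutation test of 3 against 3 hearts cannot give a p below 0.1, and 8 pairs were compared. The ratio of mitoferrin 2 to mitoferrin 1 (Slc25a28 over Slc25a37) was 1.69, 1.10 and 1.42 in NTG and 2.28, 2.22 and 2.20 in TG. The difference was 0.83 (exact permutation p = 0.1, adjusted over the pairs 0.267), with no overlap, and 0.68 to 0.98 when each heart was left out. In linear terms Slc25a28 averaged 2.64 times the level of Slc25a37 per kilobase in NTG and 4.71 times in TG. In CPM the means of Slc25a28 and Slc25a37 were 18.8 and 28.4 in NTG and 26.5 and 22.4 in TG. The size of the ratio thus rests on the gene lengths (1514 and 6021 bases), while the difference between the groups does not.

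The ratio of Slc25a12 to Slc25a13 was -0.49, -0.55 and -0.62 in NTG and -0.32, -0.32 and -0.28 in TG, a difference of 0.24 without overlap, and of 0.21 to 0.27 when each heart was left out. The ATP-Mg carriers Slc25a23 and Slc25a24 had ratios of 0.51, 0.087 and 0.12 in NTG and 0.72, 0.72 and 0.65 in TG, a difference of 0.46 without overlap, and of 0.38 to 0.59 when each heart was left out. Both had an exact permutation p of 0.1, adjusted over the pairs 0.267. These 3 pairs reached the smallest p that the design allows, which does not pass 0.05. No share over other gene pairs was computed. Slc25a28 and Slc25a37 were each without overlap on their own, in opposite directions, so their ratio restates those values. For the other 5 pairs the groups overlapped, with exact permutation p-values of 0.2 to 0.6. Among these, Ucp3 over Ucp2 differed by 0.55, by 1.06 without the library labelled NTG 1 and by 0.13 without NTG 2, and spread from -4.39 to -2.52 within NTG alone. Slc25a42 over Slc25a16 differed by 0.43 (0.33 to 0.57 when each heart was left out). Slc25a39 over Slc25a40 differed by 0.30 (0.24 to 0.40) and Slc25a33 over Slc25a36 by 0.16, from -0.032 without TG 3 to 0.36 without TG 2. Slc25a22 over Slc25a18 differed by 0.96, from -0.23 without TG 1 to 2.07 without TG 2, and rests on 0 to 11 counts of Slc25a18.

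**Figure D4:**
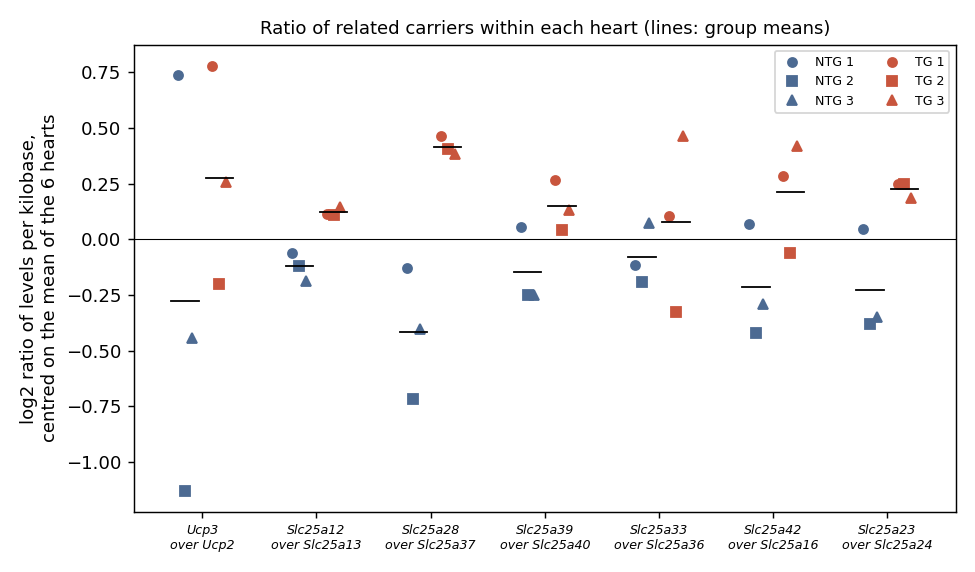
log2 ratio of levels per kilobase between related carriers in each heart, centred on the mean of the 6 hearts, for NTG (blue) and TG (red), with lines at the group means. The groups are apart for Slc25a12 over Slc25a13, Slc25a28 over Slc25a37 and Slc25a23 over Slc25a24, the TG hearts lie close together in these pairs, and Slc25a22 over Slc25a18 is left out because Slc25a18 had 0 to 11 counts.

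The carriers were set beside the subunits of the respiratory chain that are encoded in the nucleus, a list that here includes ATP synthase subunits. The mean log2 CPM of the 38 carriers, centred on the 6 hearts, was 0.080, -0.13 and -0.086 in NTG and 0.091, -0.042 and 0.090 in TG. For 76 respiratory chain subunits it was 0.0021, -0.47 and -0.25 in NTG and 0.35, 0.026 and 0.34 in TG, and their median log2 fold change was 0.43, against 0.14 for the carriers. Both had their lowest heart in NTG 2. Genes of the mitochondrial genome held 19.2%, 13.4% and 14.3% of all counts in NTG and 21.5%, 16.0% and 20.3% in TG. This share ranked the 6 hearts in the same order as the carrier mean, and its part in these means was not tested. The library labelled NTG 1 was above TG 2 for the carriers and below all TG hearts for the subunits, and the difference between the lists was not tested.

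**Figure D5:**
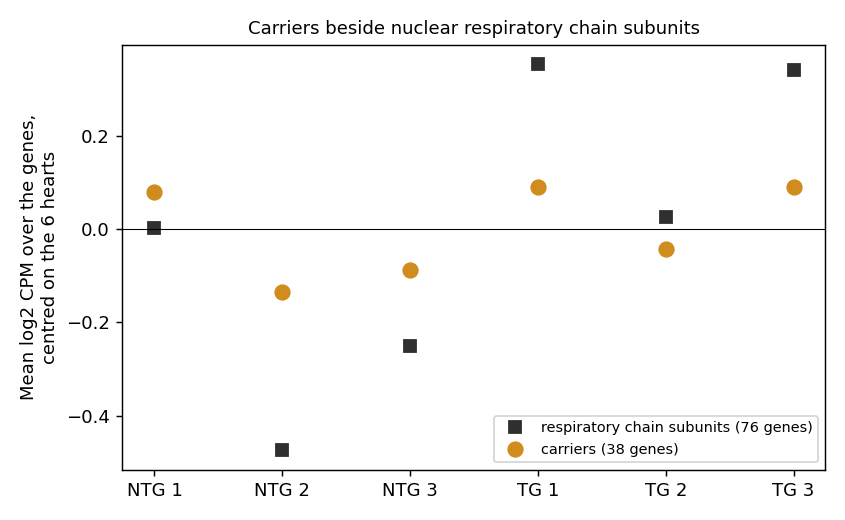
Mean log2 CPM over the 38 tested carriers (circles) and over 76 nuclear respiratory chain subunits (squares) in each of the 6 hearts. The subunits include those of ATP synthase, and each list is centred on its mean over the hearts. The carriers span -0.13 to 0.091 and the subunits -0.47 to 0.35, and NTG 2 is the lowest heart in both.

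The carriers that were set aside at the outset are among the best-known of the family in heart. The ADP/ATP carrier Slc25a4 had a log2 fold change of 0.58 without overlap between the groups (edgeR, adjusted p = 0.213), Slc25a5 one of 0.05 and the carnitine carrier Slc25a20 one of 0.39 (edgeR, adjusted p = 0.224). Among 17 other mitochondrial transport genes, 12 had values above 0 with a median of 0.16. At an unadjusted p under 0.05, 2 of the 17 (11.8%) were higher, against 8.83% of all genes, and 2 (11.8%) were lower, against 9.76%, which is near the background, and 0 passed the adjusted threshold. The 3 with the smallest p were Sfxn3, of the serine-transporting sideroflexins, at -0.55 ± 0.15, the pyruvate carrier subunit Mpc2 at 0.56 ± 0.19 and Abcb10, an inner membrane ABC transporter, at 0.43 ± 0.15. The 7 genes that bring carriers into the inner membrane had a median of 0.16, and the intermembrane space chaperone Timm10, at 0.34 ± 0.10, was the only one with an unadjusted p under 0.05, 14.3% of the 7 against 8.83% of all genes (edgeR, adjusted p = 0.200). The next smallest p-values belonged to Timm29 (0.16 ± 0.11) and Timm9 (0.22 ± 0.15), both without overlap between the groups, as were 11.2% of all genes in that direction.

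Promoter sequences from RefSeq (GRCm38.p6) were at hand for 36 of the 47 carriers. Both carriers with the extreme fold changes are shown, as the 250 bases before the RefSeq start, read 5′ to 3′ on the gene's strand. For Slc25a34 (chr4:141623835-141624084, minus strand) the capitals mark the reverse complement of AAGGTCA, the extended half-site bound by nuclear receptors such as the estrogen-related receptors, and for Slc25a1 (chr16:17928220-17928469, minus strand) they mark the E-box CACGTG.
Slc25a34: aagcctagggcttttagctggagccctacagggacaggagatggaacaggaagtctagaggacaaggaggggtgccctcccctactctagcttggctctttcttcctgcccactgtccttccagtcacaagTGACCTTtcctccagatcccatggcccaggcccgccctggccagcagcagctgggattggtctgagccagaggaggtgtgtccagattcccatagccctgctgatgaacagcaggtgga
Slc25a1: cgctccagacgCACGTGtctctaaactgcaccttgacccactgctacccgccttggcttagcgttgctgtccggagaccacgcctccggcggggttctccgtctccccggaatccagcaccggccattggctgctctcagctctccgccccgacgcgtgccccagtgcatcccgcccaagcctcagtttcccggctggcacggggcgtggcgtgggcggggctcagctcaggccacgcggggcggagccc
All motifs were searched on both strands of the whole promoter sequence, which runs past the RefSeq start beyond the 250 bases shown. AAGGTCA occurred in 1 of the 36 carrier promoters, that of Slc25a34, and in 4.72% of 32851 promoters. CACGTG, a palindrome, occurred in 6 of the 36 (16.7%, against 7.15%), in Slc25a1, Slc25a13, Slc25a14, Slc25a31, Slc25a33 and Slc25a36. The longer estrogen-related receptor element TCAAGGTCA, which contains AAGGTCA, and the consensus NRF1 element occurred in 0 of the 36, against 0.423% and 0.971%. The promoter of Slc25a1 had a GC content of 70.0% and that of Slc25a34 one of 58.4%. A match is a description of the letters in the searched sequence only, and no binding was measured.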

How the data were processed

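Poly-A RNA of 3 TG and 3 NTG left ventricles was sequenced. The authors trimmed and mapped the reads and counted them per gene with featureCounts, and the values they deposited, used here, are raw counts per gene, 1 column per heart, with a gene length column (other than a measurement, and used for levels per kilobase). The submitters' notes name HISAT2, DESeq2 and the human build GRCh38, whereas 53585 of the 54532 gene positions are identical in GENCODE M21, a mouse annotation on GRCm38, and 44 of the 47 carriers match it. Whether strand was used, and what was done with multiply mapped reads, is not given in the sources used here, so antisense and overlapping genes are uncertain. All 6 columns were matched to their libraries (0 unmatched). No 2 libraries agreed within sampling noise.

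The test was edgeR 4.0.16 under R 4.3.3 (TMM, filterByExpr by group, robust quasi-likelihood test, Benjamini-Hochberg adjustment over 14774 genes). TMM factors lay between 0.929 and 1.073, and CPM are TMM-normalized. List means and pair ratios had a pseudocount of 0.5. The log2 CPM behind the principal component and the correlations of same-numbered hearts had a prior count of 2. All gene p-values in the text are from edgeR unless DESeq2 1.42.0 or an exact permutation test is named. The script was tested on simulated data. Carriers with values in each heart were those with an unadjusted p under 0.05, the highest per kilobase of each substrate class, the uncoupling proteins and the tested members of the pairs (Slc25a40 as its range), and, of the other lists, the 3 with the smallest p were named with their fold changes. Slc25a10, Slc25a15, Slc25a17, Slc25a25, Slc25a27, Slc25a14, Slc25a29, Slc25a32, Slc25a35, Slc25a44, Slc25a45, Slc25a46, Slc25a47 and Slc25a53 were added to complete their classes. The carriers, classes and lists were chosen with earlier results of these data known. Alternatives were RLE and library-size scaling, other count filters, DESeq2, limma-voom 3.58.1, a replicate block, each library left out and adjusted p alone. Counts cover all members of the set, and 1 carrier is not reported here by name.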

Additional observations from a re-analysis of the deposited data

How the results depend on the processing

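In the edgeR test of the report, 0 carriers were called in either direction with all 6 libraries, and RLE scaling, library-size scaling, a minimum of 10 counts, limma-voom and adjusted p alone also gave 0. Higher in TG, 1 was called without the low-count filter (Slc25a34), 2 with DESeq2 and 0 to 4 over the fits leaving out 1 library, the 4 without the library labelled NTG 1. DESeq2 without that library, chosen after seeing the data, called 7 higher and 2 lower (Slc25a30 and Slc25a1), against 5.92% and 5.79% of all genes. At an unadjusted p under 0.05, the 5 higher carriers became 2 to 11 and the 4 lower ones 2 to 5 with 1 library left out, and 11 were higher with DESeq2 without the library labelled NTG 1. The lowest count of higher carriers, 2, came without NTG 3 or TG 1, where 5.15% and 4.98% of all genes were higher, and the highest, 11, without the library labelled NTG 1, where 13.7% were, against 8.83% with all libraries. Carriers higher without overlap numbered 4, and 4 to 17 with 1 library left out, 17 without the library labelled NTG 1 (also in the DESeq2 setting), where 23.0% of all genes did so, and 13 without TG 2, where 20% did, against 11.2% with all libraries, while removing any other library gave 4 to 6 carriers and 13.7% to 15.1% of all genes. The median log2 fold change, 0.14, was 0.062 with library-size scaling, which moved the median of all genes from -0.0081 to -0.093, and 0.074 to 0.23 with 1 library left out. For the other transport genes, 0 called higher became 0 to 1 with 1 library left out and 2 with DESeq2 without the library labelled NTG 1, and 0 called lower became 0 to 1, 1 without the filter and 1 in that DESeq2 setting. Their 2 higher at an unadjusted p became 0 to 6, and 5 in that setting, their 2 lower became 1 to 2 (all genes, 4.98% to 13.7% higher and 5.37% to 13.3% lower with 1 library left out), and their 2 higher without overlap became 2 to 11, and 9 in that setting. The Hint2 log2 fold change was 1.33 with all libraries, 2.31 with limma-voom and 0.77 to 1.79 with 1 library left out, and among all the fits it passed the threshold only without the library labelled NTG 1, at 0.77, and 0.78 with DESeq2. The causes were not tested.

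Replicate numbers are shared between the groups, and same-numbered hearts deviated from their group means with correlations of 0.081, 0.17 and -0.25. Differently numbered hearts gave -0.25 to 0.17. With so few hearts a group, these correlations cannot decide whether the hearts were paired, and the main test used no pairing. With a replicate block, 1 carrier was called higher (Slc25a34), against 0.569% of all genes, and 9 were higher at an unadjusted p under 0.05, as were 6 of the other transport genes, against 11.2% of all genes (8.83% without the block). Of 336 values of 24 carriers under the alternatives, 316 kept their direction and side of the threshold, 17 newly passed it and 3 turned in sign. Those 3 were for Slc25a33, which was -0.03 with all libraries and -0.19 to 0.12 with 1 left out, 0.12 without the library labelled NTG 1, 0.084 without TG 2 and 0.13 with DESeq2 without the library labelled NTG 1. Outside those 24, Slc25a25, Slc25a14, Slc25a44, Slc25a45 and Slc25a53, each close to 0 with all libraries, also turned in sign with 1 library left out. Carriers with at most 14 counts in every library were not tested at this depth.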
